A study of Mus musculus with 15 samples.

Results

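The 10 genes described here encode MYC and the proteins that share its dimerization partner MAX. They are the MYC family genes Myc, Mycn and Mycl, the partner gene Max, and the antagonists Mxd1, Mxd3, Mxd4, Mxi1, Mnt and Mga. They were chosen by name, with earlier results of these data known. All 10 were found among the 45232 gene IDs of the count table, and all 10 were among the 17834 genes expressed highly enough to be tested. RNA was sequenced from LSK cells, bone marrow cells sorted as Lin- Sca-1+ c-Kit+ and known to include the hematopoietic stem cells and early progenitors, in 15 libraries, 3 per group. The mutant groups were CD45.2+ LSK cells that carried conditional Idh2 R140Q and Jak2 V617F alleles, which Mx1-Cre had recombined after polyI:polyC injection. Mx1-Cre is an interferon-inducible Cre and is not restricted to hematopoietic cells. The mutant cells had been mixed in equal ratio with WT CD45.1 cells and transplanted into lethally irradiated CD45.1 recipients (strain C57BL/6 in the labels), so that the recipient marrow held cells of both kinds. Recipients received vehicle, AG221 (an inhibitor of mutant IDH2) at 40 mg/kg, ruxolitinib (a JAK kinase inhibitor) at 60 mg/kg, or the combined drugs, by gavage for 21 to 28 days. According to the study's methods, doses were given repeatedly each day and the last came within hours before sacrifice. The doses are those of the labels, and the study's methods also name a higher dose of AG221. The fifth group was WT LSK cells, also sorted as CD45.2+, and whether these came from transplanted mice is not given in the sources used here. The ages of the mice of each library, and whether a library held cells of 1 mouse or of several, are also not given there. P-values therefore measure the spread between these libraries. The comparisons ask how the network differed between mutant and WT LSK cells and how each treatment moved it.

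MYC binds DNA only as a dimer with MAX, at the E-box motif, where it recruits coactivators and raises transcription of genes for ribosome production, metabolism and cell division. The MXD proteins, MXI1 (also called MXD2) and MNT compete for MAX and bring SIN3 and NCOR corepressors to the same motif. MGA also pairs with MAX and is a subunit of the variant polycomb complex PRC1.6. In hematopoiesis, MYC and MYCN together sustain stem and progenitor cells, while MXD genes are typically raised as cells leave the cycle or mature. JAK/STAT signaling is among the inputs that raise Myc transcription.

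All libraries of the combined and WT groups carry a replicate name in B and all of the other 3 groups one in A, and what this letter marks is not given in the sources used here. Total counts per library ran from 18836625 to 32174287. Xist was at 453 to 510 CPM (counts scaled to a common library size) in the WT libraries and at 0.365 to 19.5 CPM in the others, while Ddx3y was at no more than 0.1004 CPM in WT and at 124 to 206 CPM in the others, so the WT and mutant libraries differed in sex-linked transcripts. None of the 10 genes lies on a sex chromosome. Between 29782 and 34487 genes had a count in the WT libraries and between 21369 and 26329 in the others. Kit, the c-Kit gene, was at 739 to 1549 CPM in all 15 libraries, and Ly6a, which encodes Sca-1, was at 13.1 to 165.8 CPM. The summed level of 19 immediate early genes was 893 to 1224 CPM in WT, 7659 to 16320 CPM with vehicle, 4677 to 6231 CPM with AG221, 4923 to 10130 CPM with ruxolitinib and 824 to 1466 CPM with combined treatment. A neutrophil list, in which Mpo, Elane and Prtn3 held most of the level, summed to 3261 to 3610 CPM in WT and 3963 to 7037 CPM with combined treatment, against 7294 to 12080 CPM with vehicle, 15990 to 18780 CPM with AG221 and 11490 to 18320 CPM with ruxolitinib. The LSK marker list summed to 4679 to 5147 CPM in WT and 2937 to 4337 CPM in the mutant libraries, and its genes Flt3 and Hlf had medians of 595 and 294 CPM in WT against 154 and 50.7 CPM with vehicle. A megakaryocyte list summed to 248 to 337 CPM in WT, 860 to 920.3 CPM with vehicle and 352 to 934 CPM in the other mutant groups. A mast cell and basophil list summed to 104 to 187 CPM in WT, 576 to 1179 CPM with vehicle and 285 to 749 CPM in the others, and a plasma cell list to 594 to 1271 CPM in WT and 34.9 to 217 CPM in the mutant libraries. An erythroid list summed to 317 to 450.4 CPM in WT and 673 to 3975 CPM in the mutant libraries, a monocyte and dendritic cell list to 529 to 557 CPM and 691 to 2375 CPM, and a B cell list to 68.8 to 97.9 CPM and 29.2 to 59.08 CPM. A T and NK cell list, in which Nkg7 held most of the level, summed to 194.5 to 260.7 CPM in WT and 423.8 to 484.4 CPM with vehicle. It was 618.9 to 781.8 CPM with AG221, 441.6 to 550.9 CPM with ruxolitinib and 415 to 428.2 CPM with combined treatment. Nkg7 alone of this list had a higher median with vehicle (418.4 CPM) than in WT (156.6 CPM). The medians of Cd3e, Cd3g, Cd3d, Lck, Ncr1 and Klrb1c were lower with vehicle, Lck at 14.38 CPM against 39.55 CPM in WT. The immediate early and neutrophil sums separated the same groups as the letter did, the other sums separated WT from vehicle, and the part of all these measures in the results below was not tested. In sorted cells sequenced in bulk, fewer cells of a type and less RNA per cell cannot be told apart.

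RefSeq promoter windows of 300 bases, from 250 before to 50 after a start site (GRCm38.p6), were at hand for 9 of the 10 genes, in 11 windows, and Myc had none. The E-box CACGTG, which reads the same on both strands, was the motif of interest because MYC-MAX and MXD-MAX dimers both bind it. It was found in 3 of the 11 windows, those of Max, Mxd4 and Mnt, and in 7.15% of all 32851 windows. Max and Mxd4 are shown because they passed the test most widely among the comparisons and moved in opposite directions, and Mnt is shown as the third window that held the motif. The motif is in capitals and each sequence is on the strand of its gene. It began 3 bases before the start site in Max (chr12:76962199-76962498, minus strand), 219 bases before it in Mxd4 (chr5:34187661-34187960, minus strand) and 123 bases before it in Mnt (chr11:74830674-74830973, plus strand).
Max: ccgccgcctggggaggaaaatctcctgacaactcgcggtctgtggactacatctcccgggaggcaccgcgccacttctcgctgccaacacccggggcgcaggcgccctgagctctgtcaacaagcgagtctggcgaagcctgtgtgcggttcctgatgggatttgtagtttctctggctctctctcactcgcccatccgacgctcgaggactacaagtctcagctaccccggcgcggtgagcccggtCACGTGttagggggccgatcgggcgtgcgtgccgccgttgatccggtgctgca
Mxd4: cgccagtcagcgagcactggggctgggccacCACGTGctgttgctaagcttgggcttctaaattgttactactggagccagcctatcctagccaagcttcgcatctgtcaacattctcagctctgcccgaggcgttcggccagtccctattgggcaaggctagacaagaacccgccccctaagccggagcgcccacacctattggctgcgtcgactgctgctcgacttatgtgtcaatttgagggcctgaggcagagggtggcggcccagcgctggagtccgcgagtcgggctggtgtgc
Mnt: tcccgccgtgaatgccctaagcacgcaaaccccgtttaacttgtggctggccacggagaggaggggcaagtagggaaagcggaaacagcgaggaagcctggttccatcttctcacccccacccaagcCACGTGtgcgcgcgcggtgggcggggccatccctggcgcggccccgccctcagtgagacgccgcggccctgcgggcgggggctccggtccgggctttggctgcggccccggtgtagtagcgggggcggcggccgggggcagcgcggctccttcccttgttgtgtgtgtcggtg
The STAT motif TTCNNNGAA was in none of the 11 windows and in 8.3% of all windows, and the E2F motif TTTCCCGC was in none of the 11 and in 1.07% of all. The FOXO motif GTAAACA was in 1 of the 3 Mxi1 windows and in 3.65% of all. Both strands were searched, and the motifs do not overlap in these windows. The 11 windows had a GC content of 56.0 to 76.7%, beside a median of 52.7% over all windows. The shares of all windows are not matched for base composition. A match in letters is a description of the sequence and not a measured site.

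The genes differed widely in level. Per length of exon (RPKM, CPM divided by exon length in kilobases), Myc was the most abundant of the 10 in every group, at 237.5 ± 44.9 RPKM in WT (SD, n = 3). Mycn at 36.4 ± 1.57 RPKM and Max at 33.9 ± 4.43 RPKM followed in WT and did not differ beyond their spread. Mga was at 12.5 ± 0.975 RPKM and Mxd1 at 6.29 ± 0.616 RPKM in WT. Mnt, Mxd3, Mxd4 and Mxi1 lay together between 2.74 ± 1.03 RPKM (Mxi1) and 3.86 ± 0.944 RPKM (Mnt), with ranges that overlapped. Mycl was the lowest, at 1.002 ± 0.296 RPKM in WT, and 1 AG221 library held only 2 counts of it, under the floor of 3 counts used here, which corresponds to 0.128 CPM in that library. Myc had between 7292 and 30379 counts per library, so that counting error was small beside the spread between libraries.

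**Figure D1:**
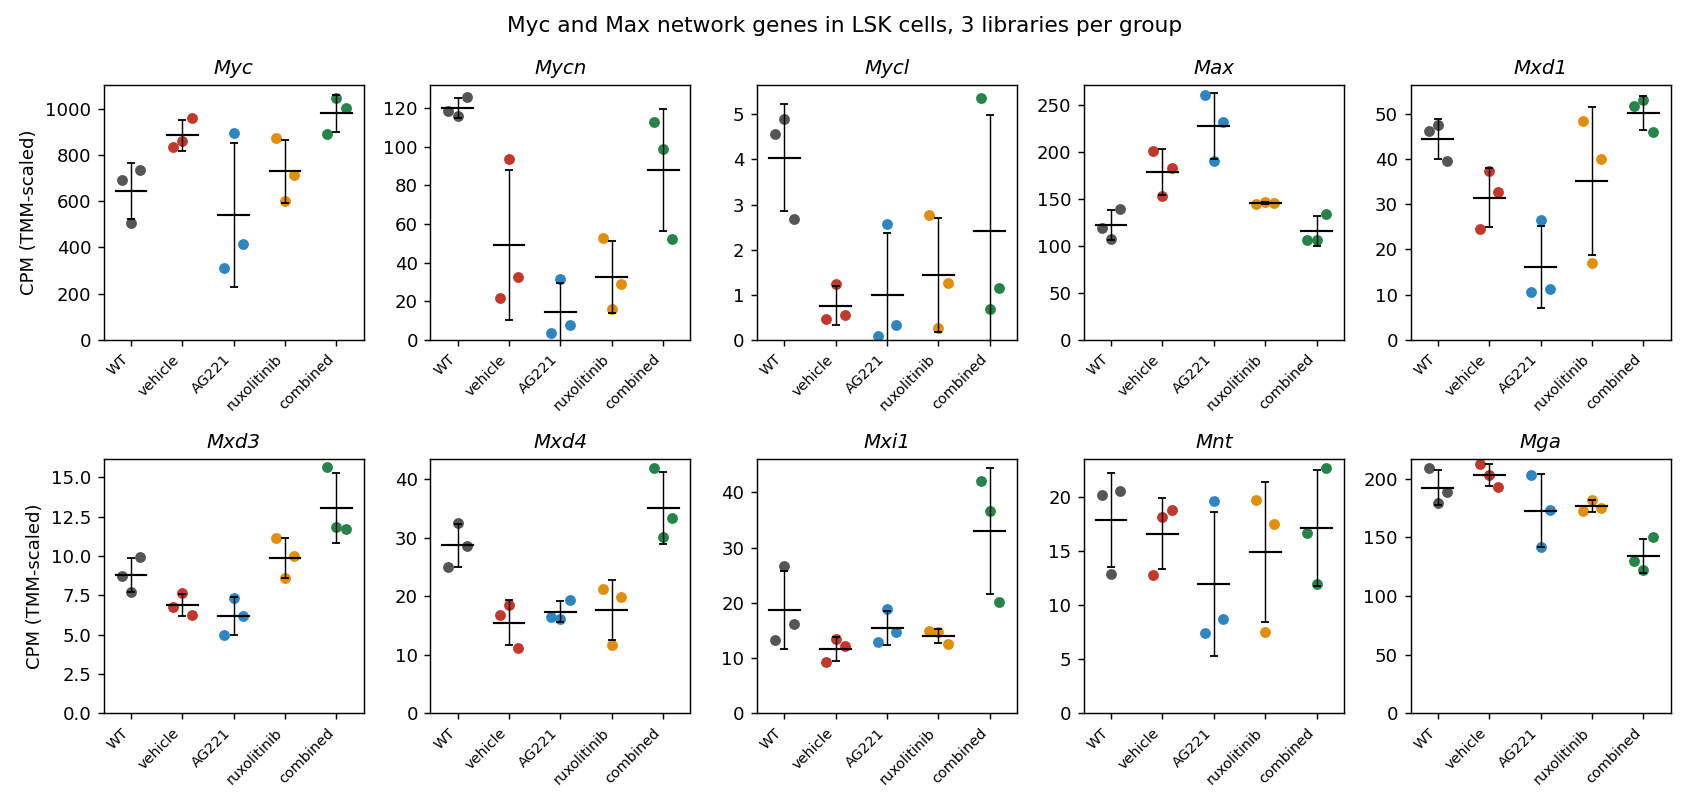
Level of each of the 10 genes in CPM (vertical axes start at 0) in the 3 libraries of each group; points are libraries, black lines the mean and bars the SD, which are clipped at 0 for Mycn and Mycl. With combined treatment the 3 libraries lie above the 3 vehicle libraries for Mxd1, Mxd3, Mxd4 and Mxi1 and below them for Max and Mga, and 1 AG221 library stands above the other 2 for Myc, Mycn, Mycl, Mxd1 and Mnt.

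Calls are genes with a Benjamini-Hochberg adjusted p under 0.05 over all 17834 genes in edgeR's quasi-likelihood test, and all adjusted p-values below are from that test. Between vehicle and WT, 2 of the 10 genes were called, Max higher and Mxd4 lower, against 33.3% of all genes tested (15.4% higher and 17.9% lower). Combined treatment against vehicle called 5 of 10, with Mxd3, Mxd4 and Mxi1 higher and Max and Mga lower, against 12.5% of all genes (8.28% higher and 4.21% lower). Without library A1, B24 or B25 that share of all genes was 5.26%, 5.52% or 6.12%. For either drug alone against vehicle 0 of the 10 genes were called by edgeR, where 0.987% of all genes were called for AG221 and 0.0168% for ruxolitinib. At an unadjusted p under 0.05 there were 4 of the 10 for AG221 (Myc, Mycn, Max and Mxd1) and 1 for ruxolitinib (Mxd3), beside 4498 and 813 of the 17834 genes. DESeq2 called 1 and 0 of the 10, beside 16.9% and 0.257% of the genes it tested. Every call that follows from these comparisons crosses the letters A and B, so the letter and the group cannot be told apart in them. In the comparisons within a letter, which are either drug alone against vehicle and combined treatment against WT, no gene of the 10 was called. For combined treatment against WT, 3.25% of all genes were called. At an unadjusted p under 0.05 there were 3 of the 10 (Mxd3, Mxi1 and Mga), beside 4529 of the 17834 genes, and DESeq2 called 2, beside 8.33% of the genes it tested. The comparisons against vehicle share the vehicle libraries, and those against WT share the WT libraries. The median log2 fold change of the 10 genes was -0.43 between vehicle and WT, beside -0.09 over all genes, and 0.76 between combined treatment and vehicle, beside 0.04 over all genes.

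**Figure D2:**
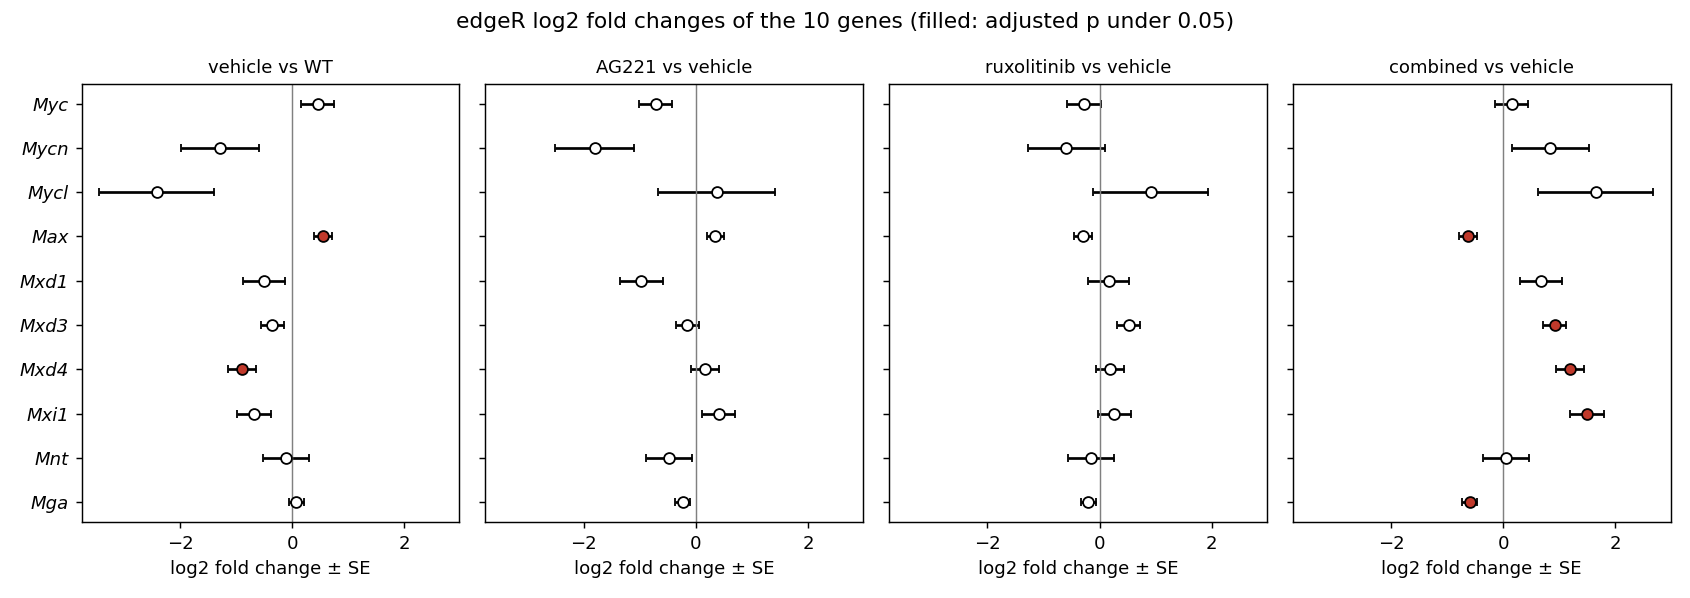
Log2 fold change (horizontal axis) of each gene with its standard error in 4 comparisons; filled points have an adjusted p under 0.05 in edgeR's test. Max and Mxd4 are filled in both outer panels with opposite signs, at 0.55 and -0.90 for vehicle against WT and at -0.63 and 1.18 for combined treatment against vehicle, and no point is filled for either drug alone.

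Myc (chromosome 15, 61985391 to 61990374, plus strand) was at 691, 507 and 738 CPM in the WT libraries, 837, 860 and 963 CPM with vehicle, 311.5, 895 and 413 CPM with AG221, 874, 601 and 716 CPM with ruxolitinib and 891, 1049 and 1006 CPM with combined treatment. All 3 vehicle and all 3 combined libraries were above the WT libraries, whereas the AG221 group held the 2 lowest libraries of the study beside 1 at the level of vehicle. The difference between vehicle and WT was 0.45 on the log2 scale (SE 0.297) and did not pass the test (adjusted p = 0.246). AG221 against vehicle gave -0.72 (SE 0.298, adjusted p = 0.161), which became -1.30 (adjusted p = 0.000797) without library A9. That was the call in 1 of 6 fits without 1 library, and 0 of 7 other settings called it. Ruxolitinib gave -0.28 (SE 0.297) and combined treatment 0.15 (SE 0.297) against vehicle, neither of which was called (adjusted p = 1 and 0.807). In order of mean level the groups were combined (982 ± 81.7 CPM), vehicle (887 ± 67.1 CPM), ruxolitinib (730.3 ± 137 CPM), WT (645 ± 122 CPM) and AG221 (539.9 ± 312 CPM), and no neighbours in that order were called as different.

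Mycn (chromosome 12, 12936093 to 12941914, minus strand), which can replace Myc in many cell types, was at 118, 116 and 126 CPM in WT, 21.6, 93.7 and 32.5 CPM with vehicle, 3.55, 31.3 and 7.60 CPM with AG221, 52.7, 16.1 and 29.0 CPM with ruxolitinib and 113, 98.9 and 52.1 CPM with combined treatment. The WT libraries were tightly grouped and above all others, and every mutant group spread over more than 2-fold. AG221 was 3.09 lower than WT on the log2 scale (SE 0.743, adjusted p = 0.00486), a call that held in all 6 fits without 1 library and all 7 other alternatives. Vehicle against WT, at -1.29 (SE 0.693, adjusted p = 0.161), was not called, although its 3 libraries were all below WT. Without library A3 it was -2.13 (adjusted p = 0.0471), which was its call in 1 of 6 fits without 1 library, and 0 of 7 other settings called it. Ruxolitinib against WT was -1.88 (SE 0.706, adjusted p = 0.0552) and was called in 6 of 7 other settings and in 1 of 6 fits without 1 library. Combined treatment was above AG221 by 2.64 (SE 0.73, adjusted p = 0.0154), a call that was lost without any 1 of libraries A8, A10 and B24.

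Mycl (chromosome 4, 122995652 to 123002485, plus strand) was at 4.56, 4.89 and 2.68 CPM in WT, 0.451, 1.24 and 0.552 CPM with vehicle, 0.0854, 2.58 and 0.327 CPM with AG221, 2.78, 0.256 and 1.27 CPM with ruxolitinib and 5.37, 0.691 and 1.16 CPM with combined treatment. All vehicle and AG221 libraries were below the WT libraries, and no comparison was called. The fold for vehicle against WT was -2.42 on the log2 scale (SE 1.03, adjusted p = 0.0843), and it was called with DESeq2, with no filter on low counts and with only the 2 groups fitted. It was called in 0 of 6 fits without 1 library.

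Max (chromosome 12, 76937269 to 76962201, minus strand), the partner that the MYC proteins need to bind DNA, was at 119, 108 and 139 CPM in WT, 202, 153 and 183 CPM with vehicle, 261, 191 and 232 CPM with AG221, 145, 147 and 146 CPM with ruxolitinib and 106, 107 and 134.5 CPM with combined treatment. The vehicle and AG221 libraries all lay above the WT libraries, and the combined libraries overlapped the WT libraries. Max rose 1.47-fold with vehicle against WT (log2 fold change 0.55, SE 0.155, adjusted p = 0.0184), a call lost with upper quartile normalization and without library A1 or B30. It rose 1.86-fold with AG221 against WT (0.90, SE 0.155, adjusted p = 0.000789), which was called in all 13 alternatives. Under combined treatment it fell by 0.63 on the log2 scale against vehicle (SE 0.155, adjusted p = 0.0172), a call that was lost without library A1, B24 or B25, and fell by 0.98 against AG221 (SE 0.156, adjusted p = 0.00227), which was called in all 13. Ruxolitinib against vehicle was -0.30 (SE 0.154, adjusted p = 1) with groups that did not overlap.

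Mxd1 (chromosome 6, 86647042 to 86669161, minus strand), an antagonist known to rise as myeloid cells mature, was at 46.2, 47.6 and 39.5 CPM in WT, 24.5, 37.3 and 32.6 CPM with vehicle, 10.6, 26.5 and 11.2 CPM with AG221, 48.5, 16.9 and 40.1 CPM with ruxolitinib and 51.9, 53.0 and 45.9 CPM with combined treatment. The AG221 libraries were below all WT and combined libraries. Mxd1 fell by 1.47 on the log2 scale with AG221 against WT (SE 0.38, adjusted p = 0.00704) and was 1.65 higher with combined treatment than with AG221 (SE 0.382, adjusted p = 0.00704), and both calls held in all 13 alternatives. Combined treatment against vehicle was 0.68 (SE 0.372, adjusted p = 0.275) and was not called.

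Mxd3 (chromosome 13, 55325168 to 55329823, minus strand), a family member linked to proliferating cells, was at 8.73, 7.71 and 9.91 CPM in WT, 6.73, 7.65 and 6.27 CPM with vehicle, 4.998, 7.36 and 6.22 CPM with AG221, 11.1, 8.58 and 9.99 CPM with ruxolitinib and 15.6, 11.8 and 11.7 CPM with combined treatment. The combined libraries were above those of every other group. Mxd3 rose 1.89-fold with combined treatment against vehicle (log2 fold change 0.92, SE 0.206, adjusted p = 0.0106) and 2.11-fold against AG221 (1.08, SE 0.207, adjusted p = 0.00352). The first call was lost with no filter on low counts and without library A1 or B24, and the second held in all 13 alternatives. Exons of Prelid1 on the opposite strand cover 4.43% of its exon bases, and the strand setting of the counting is not given in the sources used here.

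Mxd4 (chromosome 5, 34173883 to 34187720, minus strand) was at 25.1, 32.5 and 28.6 CPM in WT, 16.8, 18.5 and 11.1 CPM with vehicle, 16.5, 16.2 and 19.4 CPM with AG221, 21.3, 11.7 and 19.99 CPM with ruxolitinib and 42.0, 30.2 and 33.3 CPM with combined treatment. The 9 libraries of the vehicle, AG221 and ruxolitinib groups, all with names in A, were below the 6 libraries of WT and combined treatment, all with names in B. It fell by 0.90 on the log2 scale with vehicle against WT (SE 0.246, adjusted p = 0.0171), a call lost without library A4 or B30. It fell by 0.73 with AG221 (SE 0.246, adjusted p = 0.0252) and by 0.70 with ruxolitinib (SE 0.246, adjusted p = 0.0429) against WT, and these calls were lost in 7 and 8 of 13 alternatives. With combined treatment Mxd4 rose 2.27-fold against vehicle (1.18, SE 0.248, adjusted p = 0.00774) and 2.02-fold against AG221 (1.02, SE 0.247, adjusted p = 0.0086), called in all 13 alternatives. Against ruxolitinib it rose 1.99-fold (0.99, SE 0.247, adjusted p = 0.0176), a call lost with only the 2 groups fitted and without library A16 or B24. Exons of Gm42846 on the opposite strand cover 6.06% of its exon bases.

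Mxi1 (chromosome 19, 53310518 to 53375810, plus strand) was at 13.3, 26.6 and 16.2 CPM in WT, 9.24, 13.5 and 12.3 CPM with vehicle, 12.9, 18.8 and 14.7 CPM with AG221, 14.8, 14.7 and 12.5 CPM with ruxolitinib and 42.1, 36.5 and 20.2 CPM with combined treatment. The combined libraries were above all vehicle, AG221 and ruxolitinib libraries, and the lowest of them lay within the WT range. Mxi1 had the largest change of the 10 genes among the calls against vehicle, 2.82-fold higher with combined treatment (1.50, SE 0.304, adjusted p = 0.00668), and was called in all 13 alternatives. It was 2.13-fold higher with combined treatment than with AG221 (1.09, SE 0.301, adjusted p = 0.0153), a call lost without library A8, A10 or B24. It was 2.35-fold higher than with ruxolitinib (1.23, SE 0.302, adjusted p = 0.0166), a call lost without library A16, A17, B24 or B25. Exons of Gm10197 on the opposite strand cover 2.84% of its exon bases.

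Mnt (chromosome 11, 74830920 to 74845725, plus strand), which is expressed in cycling and resting cells alike, was at 20.2, 12.8 and 20.6 CPM in WT, 12.8, 18.2 and 18.8 CPM with vehicle, 7.43, 19.6 and 8.76 CPM with AG221, 19.7, 7.51 and 17.5 CPM with ruxolitinib and 16.7, 11.98 and 22.7 CPM with combined treatment. The groups overlapped in every comparison and none was called, with log2 fold changes of -0.11 for vehicle against WT (SE 0.407) and 0.04 for combined treatment against vehicle (SE 0.407). Mga (chromosome 2, 119897228 to 119969581, plus strand) was at 208.9, 179.7 and 189 CPM in WT, 212, 204 and 193 CPM with vehicle, 203, 142 and 174 CPM with AG221, 172, 182 and 175 CPM with ruxolitinib and 129.7, 122 and 150.4 CPM with combined treatment. The combined libraries were below all WT, vehicle and ruxolitinib libraries. Under combined treatment Mga fell by 0.60 on the log2 scale against vehicle (SE 0.136, adjusted p = 0.0115), a call lost without library A1, B24 or B25. Against WT, within the letter B, combined treatment gave -0.52 (SE 0.135, adjusted p = 0.0517), which 4 of 7 other settings called and no fit without 1 library did.

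Against WT, AG221 called 4 of the 10 genes, 1 higher and 3 lower, and 50.7% of all genes (22.2% higher and 28.5% lower). Ruxolitinib against WT called Mxd4 alone, lower, among 32.3% of all genes (16.2% lower). Combined treatment against AG221 called 7 of 10, against 33.2% of all genes: Myc, Mycn, Mxd1, Mxd3, Mxd4 and Mxi1 were higher (18.9% of all genes) and Max was lower (14.3% of all genes). The Myc call in that comparison, 0.86 higher (SE 0.299, adjusted p = 0.0401), was lost with upper quartile normalization, with only the 2 groups fitted and without any 1 of 5 libraries. Against ruxolitinib, combined treatment called Mxd4 and Mxi1, both higher, beside 12.4% of all genes (8.5% higher). The difference between the change under both drugs and the summed changes under each drug alone was called for none of the 10 and for 8.42% of all genes. An unadjusted p was under 0.05 for 5 of the 10 and for 5700 of the 17834 genes, and DESeq2 called 3 of the 10 and 22% of the genes it tested. It was largest for Mycn, 3.24 on the log2 scale (SE 0.995, adjusted p = 0.0569), which 5 of 7 other settings and 2 of 12 fits without 1 library called.

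By the count of genes whose libraries did not overlap between the groups, 7 of the 10 were apart between vehicle and WT, where 56.9% of all genes were. For combined treatment against vehicle the count was 6 (34.7% of all genes), for AG221 against vehicle 0 (20% of all genes) and for ruxolitinib against vehicle 3 (8.17% of all genes). Against WT it was 6 for AG221 (61.3%), 3 for ruxolitinib (58.1%) and 4 for combined treatment (41.6%). For combined treatment it was 6 against AG221 (44.6%) and 6 against ruxolitinib (35.5%).

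Summed per length, the MYC family exceeded Max in every library. The ratio of summed Myc, Mycn and Mycl RPKM to Max RPKM was 7.46 to 8.79 in WT, 5.62 to 8.11 with vehicle, 5.55 to 8.38 with ruxolitinib and 10.3 to 14.02 with combined treatment. In the AG221 libraries it was 1.59, 6.41 and 2.39. The combined libraries were thus above all others in this ratio, in which a low Max and a high Myc both counted. The summed RPKM of Mxd1, Mxd3, Mxd4 and Mxi1 was 15.1 to 17.7 in WT, 9.64 to 12.7 with vehicle, 7.45 to 11.5 with AG221, 9.56 to 16.2 with ruxolitinib and 18.3 to 25.1 with combined treatment, again highest in the combined libraries. The ratio of the MYC family to all 6 antagonists overlapped between the vehicle libraries, at 11.6 to 13.5, and the combined libraries, at 9.80 to 13.03, and was 6.92 to 9.63 in WT. Myc held 83.7 to 87.5% of the summed MYC family RPKM in WT and 90.2 to 99.05% in the mutant libraries, where Mycn was lower. No test was made of these sums, which come from the values given above.

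**Figure D3:**
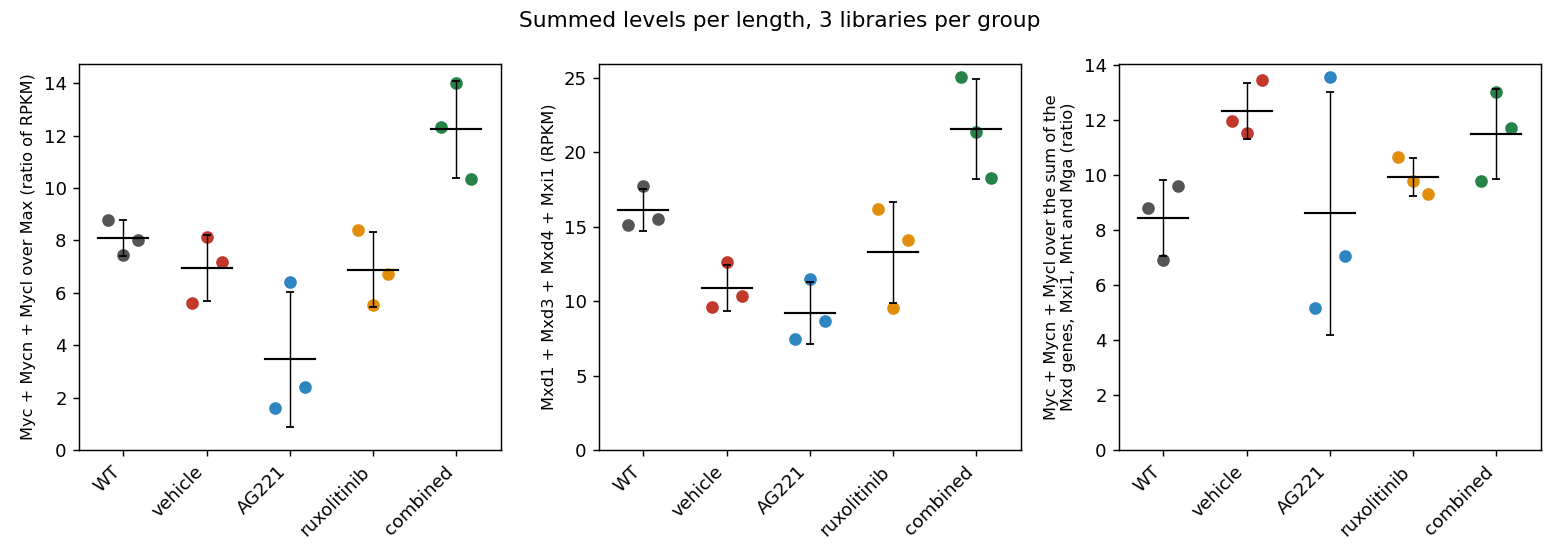
Ratio of summed MYC family RPKM to Max RPKM (left), summed RPKM of Mxd1, Mxd3, Mxd4 and Mxi1 (middle) and ratio of the MYC family to all 6 antagonists (right) in each library, with the mean and SD of each group. The 3 combined libraries stand above all 12 others in the left and middle panels, and not in the right panel.

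The libraries also differed in base composition, measured as the mean transcript GC content of the counted reads. It was 48.62 to 48.7% in WT, 48.55 to 48.72% with vehicle, 48.44 to 49.04% with ruxolitinib and 48.77 to 48.94% with combined treatment. Within the AG221 group it was 48.03% in A8 and 48.27% in A10, the lowest of the 15 libraries, and 48.89% in A9, and Myc was at 311.5, 413 and 895 CPM in the same order. Mxd1, at 10.6, 11.2 and 26.5 CPM, and Mnt, at 7.43, 8.76 and 19.6 CPM, followed the same order within the group. Library A16 had the lowest GC content of the ruxolitinib group, 48.44%, and also its lowest Myc, Mycn, Mycl, Mxd1, Mxd3, Mxd4 and Mnt. With an offset for GC content in the fit, AG221 against vehicle gave -0.67 for Myc (adjusted p = 0.121) and -0.94 for Mxd1 (adjusted p = 0.107). For Mnt the same comparison gave -0.0753 with the offset and -0.48 without it, and Mnt changed sign with the offset in 5 other comparisons, in none of which it was called. With the same offset, Mxd4 (1.10, adjusted p = 0.00699), Mxi1 (1.41, adjusted p = 0.00505), Mxd3 (0.74, adjusted p = 0.015), Max (-0.72, adjusted p = 0.0197) and Mga (-0.64, adjusted p = 0.00974) were still called between combined treatment and vehicle. The Mxd4 calls for AG221 (-0.50, adjusted p = 0.0833) and ruxolitinib (-0.57, adjusted p = 0.0676) against WT were lost with it. Over all comparisons, 2 calls were lost with the offset and 3 were gained.

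**Figure D4:**
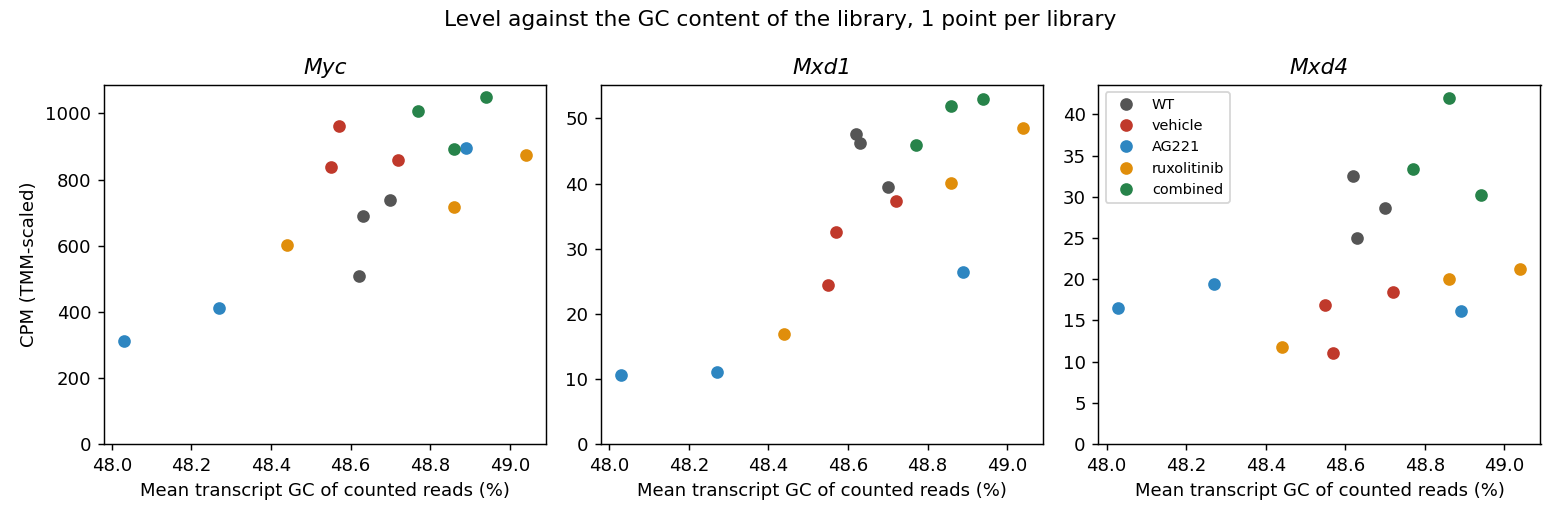
Level of Myc, Mxd1 and Mxd4 in CPM (vertical axes start at 0) against the mean transcript GC content of the counted reads in percent, 1 point per library, colored by group. The AG221 libraries A8 and A10 lie at the lower left for Myc and Mxd1, while for Mxd4 the combined and WT libraries lie above the others at 25.1 to 42.0 CPM over 48.62 to 48.94%.

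Genes around the network were read from 10 lists written from general knowledge, with earlier results of these data known. Of 20 MYC target genes of the nucleolus, 16 were higher and 0 lower with vehicle than in WT, with a median log2 fold change of 0.66. Among them were Nop58, a core protein of box C/D snoRNPs, at 533 ± 90.6 CPM against 317 ± 39.2 CPM (0.75, adjusted p = 0.0109), and Pes1, a ribosome assembly factor, at 205.5 ± 21.2 CPM against 123 ± 12.6 CPM (0.74, adjusted p = 0.0108). Without library B30 none of the 20 was called, although the median was 0.57, and 10.5% of all genes were called in that fit in place of 33.3%. Without library A1, 7 were called, and with upper quartile normalization 6 were higher and 1 lower, beside 18.3% and 27.4% of all genes. Of 18 metabolic MYC targets 11 were higher and 0 lower (median 0.57), among them Tfrc, the transferrin receptor, with 452 ± 109 CPM against 109.8 ± 3.94 CPM (2.04, adjusted p = 0.0029), and Shmt2, of mitochondrial one-carbon metabolism, with 401 ± 78.9 CPM against 198 ± 18.7 CPM (1.02, adjusted p = 0.00305). Without B30, 3 of these were called. Of 6 targets in translation 3 were higher, Eif2s1 (0.96, adjusted p = 0.0105) and Eif4e (0.68, adjusted p = 0.0226) among them, and without B30 none was called. Of 11 cell cycle targets 4 were higher, including the helicase subunit Mcm4 (0.79, adjusted p = 0.00405) and Rcc1 (0.90, adjusted p = 0.0113), and Tert was lower (-1.54, adjusted p = 0.0395), and without B30 there was 1 call, higher. These lists stand beside 33.3% of all genes called (15.4% higher and 17.9% lower) and a median of -0.09 over all genes.

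Of 7 tested genes that MYC is known to repress, 2 were higher and 1 lower with vehicle than in WT. In that comparison 33.3% of all genes were called (15.4% higher and 17.9% lower). The called genes encode cyclin-dependent kinase inhibitors. Cdkn1a, which encodes p21, was at 100.1 ± 20.5 CPM against 12.5 ± 1.72 CPM (3.002, adjusted p = 4.38e-05) and Cdkn1b, which encodes p27, at 46.4 ± 6.54 CPM against 17.8 ± 1.09 CPM (1.38, adjusted p = 0.000229). Cdkn1c, which encodes p57, was lower, at 0.664 ± 1.08 CPM against 6.11 ± 3.2 CPM (-3.16, adjusted p = 0.0445), and the other 4 were not called. Without library B30 there were 2 calls, both higher, beside 10.5% of all genes. With combined treatment Cdkn1a fell by 2.19 on the log2 scale against vehicle (adjusted p = 0.000811) and Cdkn1b fell by 1.01 (adjusted p = 0.00262), and 0 of the 7 rose. Of all genes, 8.28% were called higher and 4.21% lower with combined treatment than with vehicle.

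Between combined treatment and vehicle the MYC target lists stand beside 12.5% of all genes called (8.28% higher and 4.21% lower). Without library A1, B24 or B25 the share of all genes called was 5.26%, 5.52% or 6.12%. Of the 20 nucleolar genes 1 was higher, Rrs1 (2.39, adjusted p = 0.00726), and 2 were lower, Utp20 (-1.25, adjusted p = 0.00748) and Polr1b (-0.71, adjusted p = 0.0165), with a median of -0.41 beside 0.04 over all genes. Of the 18 metabolic genes 4 were higher and 3 lower (median -0.26). Odc1, the first enzyme of polyamine synthesis and a direct MYC target, rose by 2.27 (adjusted p = 0.00571), while Tfrc fell by 1.49 (adjusted p = 0.0135) and the hexokinase gene Hk2 fell by 0.74 (adjusted p = 0.0154). Without library A1, 2 metabolic genes were higher and 1 lower, and without B24 2 and 0. Of 6 translation genes Eif3b alone was called (1.83, adjusted p = 0.0375), and none was without library A1, B24 or B25. Of 11 cell cycle genes 3 rose and 0 fell, with E2f1 at 1.28 (adjusted p = 0.00635) and the cyclin E gene Ccne1 at 1.96 (adjusted p = 0.0049). For AG221 against vehicle 1 gene of the 10 lists was called, in the metabolic list, beside 0.987% of all genes, and for ruxolitinib there was none, beside 0.0168%. For AG221 against WT, 14 of the 20 nucleolar genes were higher and 1 lower (median 0.89), beside 22.2% and 28.5% of all genes. For combined treatment against AG221, 1 was higher and 13 lower (median -0.75), beside 18.9% and 14.3% of all genes. Both comparisons cross the letters, and these list counts were not repeated with single libraries left out.

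**Figure D5:**
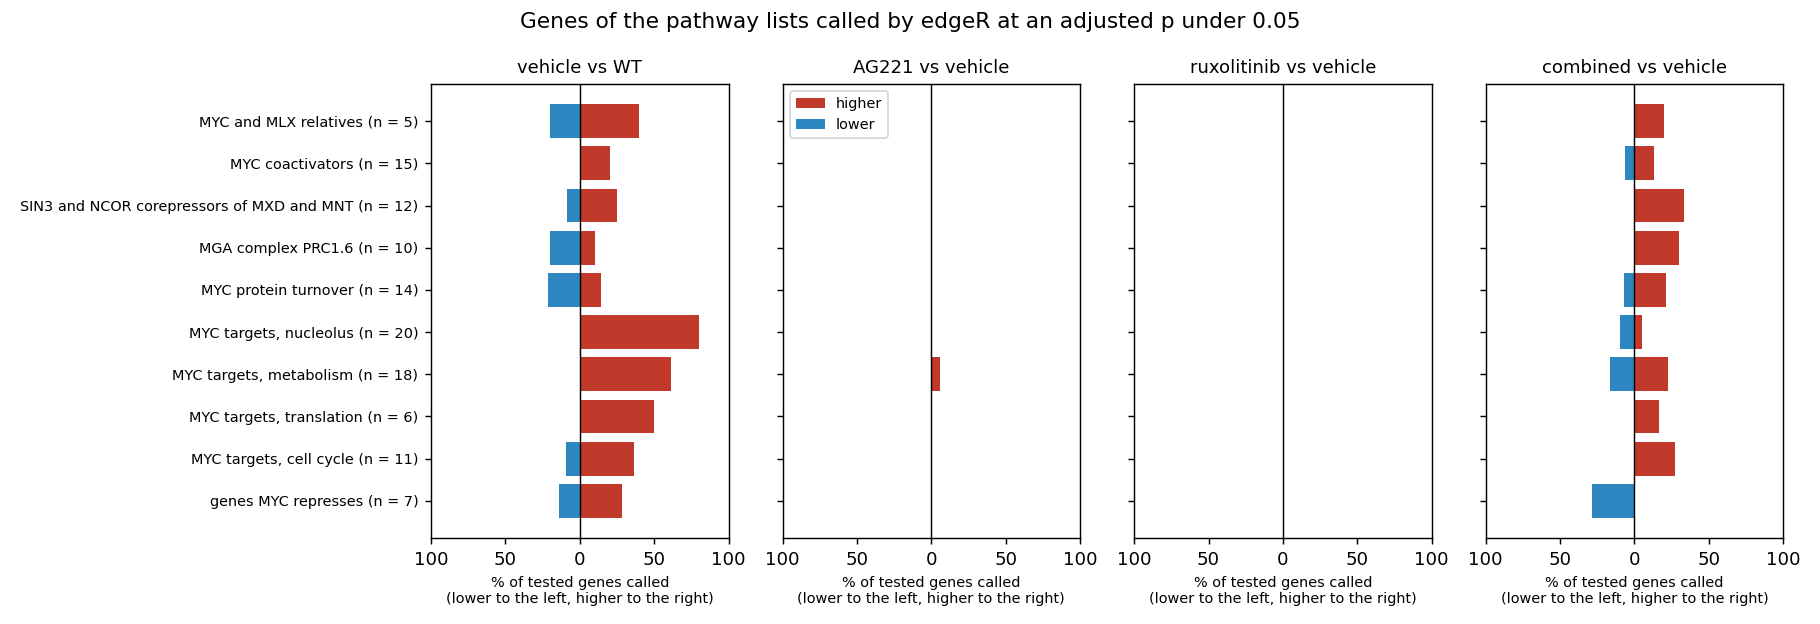
Share of the tested genes of each list called by edgeR as higher (right of 0) or lower (left of 0) in 4 comparisons, in percent of the n given beside each list. For vehicle against WT the nucleolar bar stands for 16 of 20 genes higher, beside 15.4% of all genes, and without library B30 none of these was called. The panels of both single drugs are empty but for 1 bar, in the metabolic list for AG221.

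For the remaining lists, counts between vehicle and WT stand beside 33.3% of all genes called (15.4% higher and 17.9% lower), and counts between combined treatment and vehicle beside 12.5% (8.28% higher and 4.21% lower). Of 12 SIN3 and NCOR corepressor genes, which serve the MXD proteins and MNT, 3 were higher and 1 lower with vehicle than in WT, with Rbbp4 (0.64, adjusted p = 0.00607) and Sin3a (0.40, adjusted p = 0.0257) higher and Hdac2 lower (-1.41, adjusted p = 0.0448). With combined treatment against vehicle 4 rose and 0 fell, led by Ncor1 (0.65, adjusted p = 0.00378) and Suds3 (2.27, adjusted p = 0.00396). Of 10 genes of the MGA complex PRC1.6, E2f6 (-1.58, adjusted p = 0.00871) and Pcgf6 (-1.35, adjusted p = 0.0295) were lower and L3mbtl2 higher (0.83, adjusted p = 0.0189) with vehicle than in WT. With combined treatment 3 of these 10 were higher than with vehicle and 0 lower, with E2f6 at 2.14 (adjusted p = 0.00331) and Pcgf6 at 2.002 (adjusted p = 0.00932), opposite in direction to Mga itself. E2f6 was at 58.2 ± 22.0 CPM in WT, 19.6 ± 5.58 CPM with vehicle, 14.8 ± 1.78 CPM with AG221, 22.0 ± 7.85 CPM with ruxolitinib and 86.4 ± 31.1 CPM with combined treatment, with the groups named A below those named B, as for Mxd4. Without library B30, 1 SIN3 and NCOR gene was higher and 0 lower for vehicle against WT and 0 and 1 of PRC1.6, and without library A1, B24 or B25 2 SIN3 and NCOR genes were higher for combined treatment against vehicle. Of PRC1.6, 1 was higher there without A1. The share of all genes called for vehicle against WT was 10.5% without B30. For combined treatment against vehicle it was 5.26%, 5.52% or 6.12% without A1, B24 or B25.

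Of 14 genes of MYC protein turnover, 2 were higher and 3 lower with vehicle than in WT, where 33.3% of all genes were called. Fbxw7, the ubiquitin ligase subunit that marks phosphorylated MYC for degradation, was lower (-0.86, adjusted p = 0.012), as was Fbxo28 (-1.63, adjusted p = 0.0188), while the higher ones included Aurka (0.69, adjusted p = 0.0189). None of the 14 was called without library B30, where 10.5% of all genes were called. With combined treatment, for which 12.5% of all genes were called, 3 of the 14 were higher than with vehicle, including Fbxw7 (1.12, adjusted p = 0.00525) and Fbxo28 (2.32, adjusted p = 0.00655), and Trim32 was lower (-0.56, adjusted p = 0.0303). Of 15 coactivator genes 3 were higher with vehicle than in WT, Hcfc1 (0.72, adjusted p = 0.00739) and Ruvbl2 (0.74, adjusted p = 0.0111) among them, and 1 was called without B30. With combined treatment Hcfc1 was lower than with vehicle (-0.67, adjusted p = 0.0144) and 2 genes were higher, Cdk9 among them (1.65, adjusted p = 0.0404), and none of the 15 was called without library A1, B24 or B25. In those fits 5.26%, 5.52% and 6.12% of all genes were called. Of 5 relatives, Pvt1, the non-coding gene next to Myc, was at 14.6 ± 2.38 CPM with vehicle against 5.65 ± 0.182 CPM in WT (1.37, adjusted p = 0.0135), Mlx was higher (0.44, adjusted p = 0.0197) and Mlxip lower (-0.63, adjusted p = 0.017). None of the 5 was called without B30. Mlxip rose with combined treatment against vehicle (0.81, adjusted p = 0.00874), and was not called without library B24.

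The genes most like each member over the 15 libraries, by Pearson's r of log2 CPM, are given as a description, since the libraries share groups, letters and base composition. They were Dnajc30, Chmp6 and Galk1 for Myc (highest r 0.97), Gimap1, Arrdc4 and Eva1b for Mycn (0.98), Plbd1, Tmtc2 and Nod1 for Mycl (0.95) and Atic, Prrc2c and Snrnp48 for Max (0.98). They were Hdac5, Mtmr14 and Klhl36 for Mxd1 (0.99), Dap, Gtf2ird1 and Nrtn for Mxd3 (0.89), Acot2, 5730405O15Rik and Ankrd50 for Mxd4 (0.95) and Tmem165, Ctbp1 and Prkaca for Mxi1 (0.96). For Mnt they were Ubr4, Pbx2 and Gtf2i (0.95) and for Mga Zfp871, Tmem87a and Atm (0.92). None of the 10 genes was among the nearest 3 of another.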

How the data were processed

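RNA of CD45.2+ LSK cells was amplified by the SMARTer protocol and sequenced with paired 50-base reads. The authors aligned reads to mm10 with STAR 2.5.1a (version from the submitters' processing notes) and deposited raw counts per Ensembl gene, used here. Their table of counts normalized by DESeq2 1.6.3 was not used. The Ensembl release and strand setting are not given in the sources used here. Symbols, exon lengths and coordinates came from GENCODE M21 (GRCm38), matching 44585 of 45232 IDs, and no column belonged to another series. All 15 libraries entered 1 edgeR 4.0.16 quasi-likelihood fit with 5 groups, TMM, filterByExpr and Benjamini-Hochberg adjustment over 17834 genes, and genes with an adjusted p under 0.05 were called. SE is the absolute log2 fold change divided by the square root of F. CPM use TMM-scaled totals, and log2 CPM a prior count of 2. A count of 0 allows up to 3 counts, for counting error only. The fit was tested on simulated data. Groups came from the sample labels. Alternatives were RLE and upper quartile scaling, DESeq2 1.42.0, other filters, GC offsets, only the groups compared and leaving out each library. List counts under these were added after seeing the data. Members and lists were chosen with earlier results of these data known. Named list genes are the 2 called with the smallest adjusted p per direction and list, in the comparison of vehicle with WT and of each treatment with vehicle. The values of 3 of these genes are not reported here.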

Additional observations from a re-analysis of the deposited data

How the results depend on the processing

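Over 100 log2 fold changes (10 genes in 10 comparisons), 1350 alternative values were computed, 660 of them leaving out 1 library. Of these, 1207 kept their direction and side of the threshold, 49 kept the direction without passing it, 53 newly passed it and 41 changed sign. The cause was not tested in any of these. The number of the 10 genes called ranged, when 1 library was left out, from 0 to 3 for vehicle against WT (2 with all libraries), 0 to 4 for AG221 against vehicle (0), 2 to 5 for combined treatment against vehicle (5), 3 to 7 for AG221 against WT (4), 0 to 2 for ruxolitinib against WT (1), 4 to 10 for combined treatment against AG221 (7), 0 to 2 for combined treatment against ruxolitinib (2) and 0 to 4 for the departure from additivity (0). It stayed at 0 for ruxolitinib against vehicle and for combined treatment against WT. The share of all genes called then was 10.5% to 30.9% for vehicle against WT, and 0% to 24.4% for AG221 and 5.26% to 10.3% for combined treatment against vehicle. Against WT it was 33.9% to 56.4% for AG221, 10.6% to 27.1% for ruxolitinib and 0.46% to 2.22% for combined treatment. For combined treatment it was 15.7% to 42.6% against AG221 and 5.99% to 9.92% against ruxolitinib, and for the departure 0.23% to 31.8%. Ruxolitinib against vehicle reached 0.0471%. Without library A9, 4 of 10 were called for AG221 against vehicle, among 24.4% of all genes in place of 0.987%. In the same setting 7 were called for AG221 against WT, among 56.4% of all genes in place of 50.7%. For the departure 4 were called, among 31.8% in place of 8.42%. For combined treatment against AG221 the count was 4 without A8, A10 or B24, among 15.7%, 16.9% and 17.3% of all genes in place of 33.2%. With upper quartile scaling 1 was called for vehicle against WT, 2 for ruxolitinib against WT, 1 for combined treatment against WT and 2 for the departure. In the same order, 27.4%, 28.2%, 3.59% and 17.5% of all genes were called. DESeq2 called 1 for AG221 against vehicle, 2 for ruxolitinib against WT, 2 for combined treatment against WT and 3 for the departure, beside 16.9%, 26.8%, 8.33% and 22% of the genes it tested. A minimum of 10 counts in every library gave 2, 1 and 2 for ruxolitinib against WT, combined treatment against WT and the departure. Of the genes tested with that minimum, 32.9%, 2.15% and 19.5% were called. With only the groups compared there were 4 for vehicle against WT, 1 for combined treatment against WT and 1 for combined treatment against ruxolitinib. The shares of all genes called in these fits were 38.6%, 10.6% and 12%. No filter gave 1 and GC offsets 1 for the departure, beside 4.95% and 11.2% of all genes. Scaling moved the median of all genes by over 0.1: from -0.09 (TMM) to 0.10 (GC offsets) for vehicle against WT, from -0.01 to 0.18 (upper quartile) for AG221 against vehicle, from -0.25 to 0.04 and from -0.14 to 0.03 (GC offsets) for AG221 and ruxolitinib against WT, and, with upper quartile scaling, from 0.04 to -0.08 against vehicle, 0.04 to -0.16 against WT, 0.11 to -0.18 against AG221 and 0.01 to -0.11 against ruxolitinib for combined treatment and from 0.07 to -0.24 for the departure.

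Values that changed sign belonged to genes not called in that comparison. With GC offsets Mnt was 0.19 for vehicle against WT, -0.30 for combined treatment against vehicle, 0.12 for AG221 against WT, -0.23 and -0.0741 for combined treatment against AG221 and ruxolitinib, Mxd3 was 0.10 for AG221 against vehicle, and Mga was 0.0499 and 0.0663 for AG221 and ruxolitinib against WT. With upper quartile scaling Mga was -0.0128 for vehicle against WT, Mxd3 0.0217 for AG221 against vehicle, Mnt -0.0498 for combined treatment against vehicle and Mxd1 -0.03004 for combined treatment against WT. With at least 10 counts in every library Mga was -0.0416 for vehicle against WT. Leaving out 1 library gave ranges that crossed 0 for Mnt from -0.30 to 0.0636 for vehicle against WT, -0.41 to 0.17 for ruxolitinib and -0.22 to 0.24 for combined treatment against vehicle, -0.50 to 0.10 for ruxolitinib and -0.31 to 0.15 for combined treatment against WT, and -0.16 to 0.45 for combined treatment against ruxolitinib. For Mycl they were -1.82 to 0.95 for AG221 against vehicle, -0.0904 to 3.46 and -0.63 to 1.62 for combined treatment against AG221 and ruxolitinib and -1.002 to 2.55 for the departure. Against vehicle they were -0.30 to 0.00913 (Mxd3) and -0.0291 to 0.31 (Mxd4) for AG221, and -1.13 to 0.27 (Mycn), -0.14 to 0.49 (Mxd1) and -0.00031 to 0.42 (Mxd4) for ruxolitinib. Against WT they were -0.82 to 0.0306 (Myc) and -0.46 to 0.0662 (Mxi1) for AG221, -0.62 to 0.0394 (Mxd1) for ruxolitinib and -0.18 to 0.0393 (Max) for combined treatment.

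No paired analysis was possible because no 2 groups share a replicate number in the labels. Mycl could not be tested with at least 10 counts in every library. Depth limited Mycl most, with 2 to 6 counts in its lowest libraries.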
